A study of Mus musculus with 6 samples.

Results

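Genes of cholesterol synthesis and of cholesterol turnover in the brain were examined in striatum from animals that lack PGC-1alpha, the product of Ppargc1a, which partners nuclear receptors and other factors to switch on mitochondrial genes. The genes were a named list of 31, of which 29 had an array probe set assigned to that gene alone, among 12323 named genes that could be tested. The expression of Acat2 and Soat1 was not analysed here. Each gene was read by its probe set with the highest mean signal over the 6 arrays. Of the 29 genes, 16 encode enzymes of synthesis and 13 act in regulation, transport, uptake or removal.

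The mice were 3 PGC-1a knockout (KO, PGC-1a-/-) females and 3 wild-type (WT, PGC-1a+/+) females, all 6 months old and bred from heterozygous founders, with 1 Affymetrix array per mouse. The label of KO 3 names cytoplasmic RNA where the other 5 name total RNA. The labels do not say which part of the gene was altered, and the deletion is not described there as limited to any cell type. All 5 Ppargc1a probe sets tested were below every WT mouse in every KO mouse, with differences of -1.93 to -1.12 on the log2 scale (limma adjusted p of 3.0e-05 to 0.0083). Striatal projection neuron markers were well represented (Drd1 read 1704.3 to 2099.3 over the 6 mice), while the cortical marker Slc17a7 read 88.3 to 279.1, with KO 3 the highest. RNA integrity, read as the log2 of 3' over 5' signal, overlapped between the groups for both control genes (Gapdh -0.464 to -0.443 in KO and -0.495 to -0.426 in WT, Actb 1.04 to 1.17 in KO and 1.03 to 1.24 in WT). The choroid plexus marker Ttr was higher in KO (difference 0.91, limma adjusted p = 0.035).

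Lipoprotein cholesterol does not cross the blood-brain barrier, so the brain makes its own. Acetyl-CoA is built into mevalonate, then into isoprenoids and squalene, and squalene is closed and trimmed to cholesterol. SREBP transcription factors drive these enzymes when sterol in the endoplasmic reticulum runs low. In the adult brain oligodendrocytes use much of the product for myelin, astrocytes pass cholesterol to neurons on ApoE particles, and neurons dispose of the excess by hydroxylating it with Cyp46a1.

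Promoter sequences are shown for Hmgcs1, Nsdhl and Abca1. For these 3 members the probe set with the highest mean signal gave an unadjusted limma p under 0.05, and each has 1 listed start. Hmgcs1 was picked because, of the 25 members with a listed promoter, it alone holds the exact letters searched for as the SREBP element. The other 2 were added, after their values were seen, as a later enzyme of synthesis and a gene of export. Each run is 250 bases before to 50 after the start, 5′ to 3′ in the direction of transcription, from RefSeq on GRCm38.p6. Capitals mark the letters of 4 motifs searched on both strands: the SREBP element TCACNCCAC, the NF-Y box CCAAT, the GC box GGGCGG and the core site AAGGTCA of estrogen-related receptors, which are partners of PGC-1alpha.
Hmgcs1 promoter, chr13:119690101-119690400, plus strand: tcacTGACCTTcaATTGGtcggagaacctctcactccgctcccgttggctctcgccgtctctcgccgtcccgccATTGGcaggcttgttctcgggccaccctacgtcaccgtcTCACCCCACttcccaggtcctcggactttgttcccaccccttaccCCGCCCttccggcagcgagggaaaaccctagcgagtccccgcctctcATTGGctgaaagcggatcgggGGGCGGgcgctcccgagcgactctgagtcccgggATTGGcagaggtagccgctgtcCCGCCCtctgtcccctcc
Nsdhl promoter, chrX:72918271-72918570, plus strand: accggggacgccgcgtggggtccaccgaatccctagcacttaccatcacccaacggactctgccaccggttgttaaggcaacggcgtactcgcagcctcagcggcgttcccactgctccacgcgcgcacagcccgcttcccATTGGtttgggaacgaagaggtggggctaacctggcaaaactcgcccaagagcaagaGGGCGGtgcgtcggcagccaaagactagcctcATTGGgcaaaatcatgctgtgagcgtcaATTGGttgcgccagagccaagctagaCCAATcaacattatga
Abca1 promoter, chr4:53159846-53160145, minus strand: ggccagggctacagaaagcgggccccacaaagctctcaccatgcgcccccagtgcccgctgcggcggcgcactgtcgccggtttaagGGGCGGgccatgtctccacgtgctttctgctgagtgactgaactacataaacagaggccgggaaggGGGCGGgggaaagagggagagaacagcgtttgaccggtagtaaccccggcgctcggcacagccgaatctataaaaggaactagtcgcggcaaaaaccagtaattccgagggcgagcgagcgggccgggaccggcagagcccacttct

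The Hmgcs1 window held 1 SREBP element, beginning 137 bases before the start, with 4 NF-Y boxes, 3 GC boxes and 1 receptor core site beginning 246 bases before the start. The Nsdhl window held 4 NF-Y boxes and 1 GC box, and the Abca1 window held 2 GC boxes. No 2 motifs shared letters in these windows. Promoters were listed for 25 of the 31 genes, Acat2 and Soat1 included. None was listed for Fdps, Fdft1, Sqle, Abcg1, Stard4 and Npc1. The NF-Y box was in 13 of 17 promoters of synthesis genes (76.5%), in 8 of 18 of the other members (44.4%) and in 37.4% of all 32851 promoters. The GC box was in 82.4% of synthesis promoters, 72.2% of the other members' and 35.7% of all. The SREBP element was in 1 of 17 synthesis promoters, 0 of 18 of the other members' and 1.24% of all, and the receptor core site was in 2, 0 and 4.72%. These are matches of letters and do not mark bound sites. Only the given letters were searched, with N as any base, so other forms of these sites were not counted.

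In KO striatum 15 of the 16 synthesis genes read lower than in WT, while the other members were divided. The size varied, and Fdps (-0.00) hardly differed. The median difference of the synthesis genes was -0.14 on the log2(signal + 16) scale, a percent change of -9.06, and single genes ran from -0.44 for Mvk to 0.11 for Sc5d. Of all 12323 genes 51.8% were lower, with a median of -0.01. Without KO 3, the mouse with the other RNA label, 15 of 16 were lower with a median of -0.16. Without KO 1 it was 12 of 16, and without WT 2 also 12. No member passed an adjusted p of 0.05 in limma, in either direction, by any of its 55 tested probe sets, where 0.47% of all probe sets passed. At an unadjusted p under 0.05, 2 of the 16 synthesis genes were lower and 0 higher, and over all genes 5.61% were lower and 4.12% higher. All KO mice lay below all WT mice for 4 of the 16, as for 8.48% of all genes, and above them for 1, as for 6.64% of all genes. In a tissue sample, fewer cells of a type and less RNA per cell cannot be told apart.

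**Figure D1:**
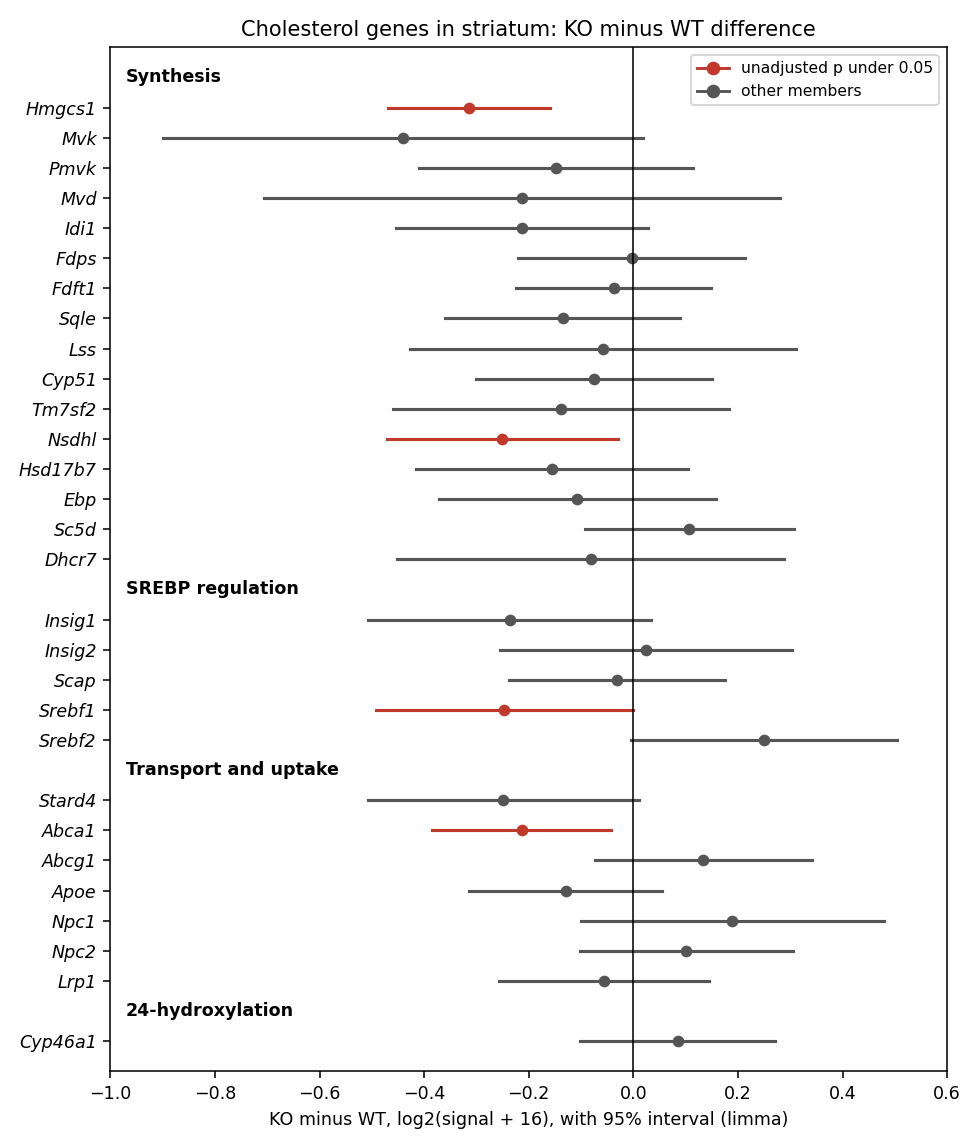
KO minus WT difference of each of the 29 genes on the log2(signal + 16) scale (x axis), with the 95% limma interval as a bar, grouped by role down the page. Red marks the 4 genes with an unadjusted p under 0.05, Hmgcs1, Nsdhl, Srebf1 and Abca1, and of the synthesis points Sc5d lies right of 0, Fdps on the line and the others left of it.

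The early enzymes, which carry acetyl-CoA to isopentenyl diphosphate, had the lowest median of the 3 stretches of the route, -0.21, with all 5 genes lower. Hmgcs1, the cytosolic HMG-CoA synthase that makes the substrate of the rate-limiting reductase, read 1364.5, 1449.4 and 1419.4 in KO mice, against 1778.6, 1651.5 and 1850.9 in WT mice. The highest KO mouse was below the lowest WT mouse. The means were 1411 ± 43 in KO and 1760 ± 101 in WT (SD, 3 mice each), and the difference was -0.31 (SE 0.07, limma adjusted p = 0.10, range over all alternatives 0.076 to 0.44). This was the smallest adjusted p of any member, and without KO 3 the difference was -0.32. All 5 Hmgcs1 probe sets were lower, by -0.46 to -0.23, with no overlap of the groups in 4 of them. The -0.46 came from a dim probe set, 1 of these 4, that read 17.0 to 47.5. The brighter ones gave -0.31 to -0.23.

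Mvk, mevalonate kinase, gave the lowest value of the list but was dim. It read 28.1, 34.3 and 24.2 in KO mice, against 42.5, 57.5 and 35.9 in WT mice (difference -0.44, 95% interval -0.90 to 0.02). The groups did not overlap, yet the signals lay close to the filter of 26.8 and a second Mvk probe set gave 0.25. Idi1, the isopentenyl diphosphate isomerase, read 313.4, 268.1 and 280.7 in KO mice, against 385.9, 308.0 and 316.3 in WT mice. Only KO 1 reached the range of the WT mice, and the difference was -0.21 (interval -0.45 to 0.03), or -0.12 without WT 1. Pmvk, phosphomevalonate kinase, differed by -0.15 and Mvd, mevalonate diphosphate decarboxylase, by -0.21. Mvd read 62.0, 52.6 and 51.3 in KO mice, against 88.1, 80.0 and 40.1 in WT mice. WT 3 stood far below the other WT mice. The Mvd difference was -0.49 without WT 3 and -0.04 without WT 1, and the second Mvd probe set gave -0.54 without overlap.

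The middle steps, from farnesyl diphosphate to squalene epoxide, had the median nearest 0 of the 3 stretches. Fdps, farnesyl diphosphate synthase, read 299.5, 310.6 and 343.1 in KO mice, against 323.7, 339.7 and 292.4 in WT mice. The groups covered nearly the same range, with a difference of -0.00 (interval -0.22 to 0.21). Fdft1, squalene synthase, differed by -0.04 (interval -0.22 to 0.15) and Sqle, squalene epoxidase and a slow step of the later pathway, by -0.14 (interval -0.36 to 0.09). The median difference of these 3 genes was -0.04.

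Among the 8 sterol steps 7 genes were lower, with a median of -0.09. Nsdhl, a decarboxylating sterol dehydrogenase, read 240.2, 244.4 and 271.9 in KO mice, against 285.6, 327.4 and 296.1 in WT mice. All KO mice were below all WT mice, with means of 252 ± 17 in KO and 303 ± 22 in WT (SD, 3 mice each). The difference was -0.25 (SE 0.10, limma adjusted p = 0.46, range over alternatives 0.35 to 0.74). Hsd17b7, a sterol ketoreductase, read 140.6, 127.8 and 142.8 in KO mice, against 162.5, 144.8 and 156.2 in WT mice. The groups were separate but close (difference -0.16, interval -0.41 to 0.10), and its 2 dimmer tested probe sets gave -0.49 and 0.10.

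Sc5d, the lathosterol desaturase, was the 1 synthesis gene that read higher, and its probe sets disagreed. The brightest read 348.6, 325.5 and 371.9 in KO mice, against 324.3, 323.8 and 318.1 in WT mice, a narrow gap with KO above WT (difference 0.11, interval -0.09 to 0.31). Its second probe set gave -0.10. The third, dim, read 30.3, 14.1 and 36.1 in KO mice, against 69.3, 47.3 and 52.5 in WT mice, so its difference of -0.78 had the opposite sign. The remaining sterol enzymes overlapped between the genotypes. Lss, lanosterol synthase, differed by -0.06, Cyp51, lanosterol demethylase, by -0.08, Tm7sf2, a sterol reductase, by -0.14, Ebp, a sterol isomerase, by -0.11 and Dhcr7, the last reductase of the route, by -0.08. The second tested Cyp51 probe set gave 0.13, with overlap. Of the 9 synthesis genes with over 1 tested probe set, 5 were lower by all of them.

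**Figure D2:**
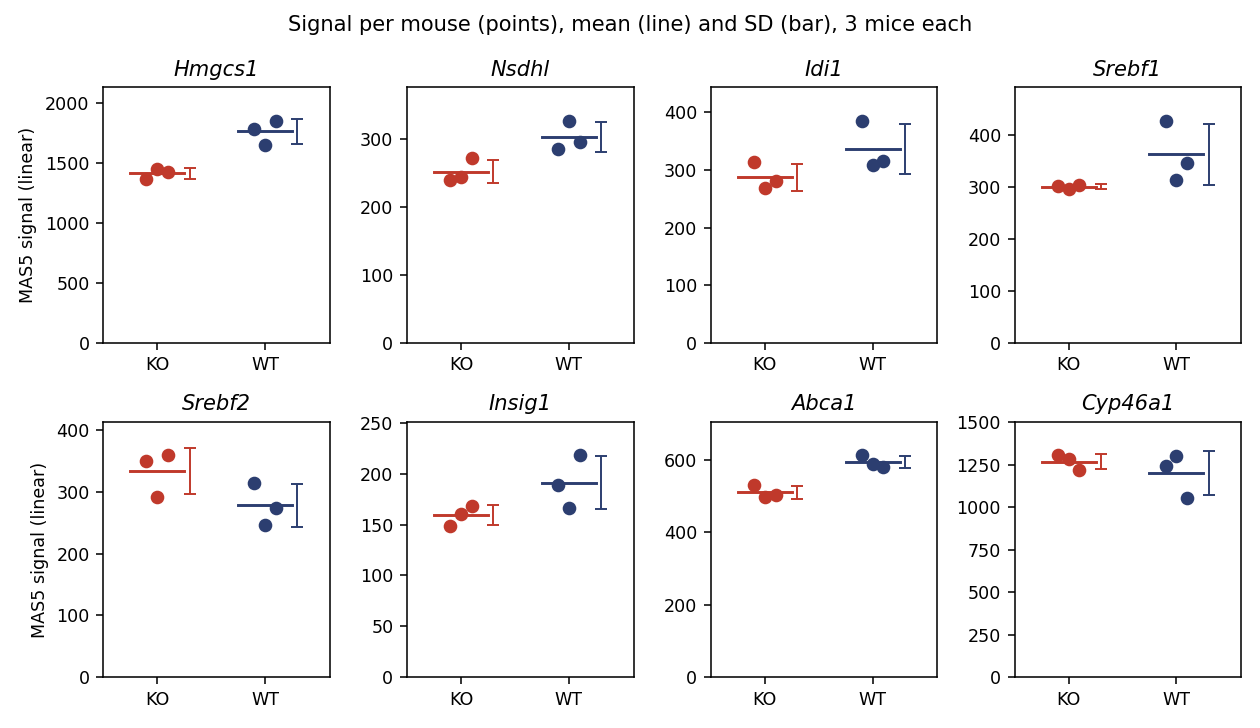
MAS5 signal on a linear axis from 0 for 8 members, with 1 point per mouse, a line at the group mean and a bar for the SD (3 KO mice left, 3 WT mice right in each panel). Hmgcs1, Nsdhl, Srebf1 and Abca1 have no overlap of the groups, whereas Idi1, Srebf2, Insig1 and Cyp46a1 overlap.

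The genes that control SREBP were divided, 3 lower and 2 higher by their brightest probe sets. Srebf1, the SREBP that mainly drives fatty acid genes, read 302.4, 295.9 and 304.1 in KO mice, against 427.9, 313.9 and 346.5 in WT mice. The KO mice were nearly equal and lay below the WT mice, which ranged widely (301 ± 4.3 in KO and 363 ± 59 in WT, SD, 3 mice each). The difference was -0.25 (SE 0.11, limma adjusted p = 0.54, range over alternatives 0.39 to 0.77). Without WT 1, the highest mouse, the Srebf1 difference was -0.13. Srebf2, the SREBP that mainly drives cholesterol synthesis, read 350.2, 291.7 and 359.2 in KO mice, against 314.7, 246.1 and 274.2 in WT mice. KO 2 fell within the WT range, and the difference was 0.25 (interval -0.00 to 0.50), with -0.02 by the second Srebf2 probe set.

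Insig1, which holds SREBP in the endoplasmic reticulum and is itself a target of SREBP, read 148.8, 160.4 and 168.1 in KO mice, against 188.6, 166.7 and 218.1 in WT mice. Only KO 3 reached the WT range, just above WT 2 (difference -0.24, interval -0.51 to 0.03). Without WT 3 the Insig1 difference was -0.14. Its relative Insig2 differed by 0.02, while its other 2 probe sets gave 0.26 and -0.06. Scap, the escort of SREBP to the Golgi, differed by -0.03 (interval -0.24 to 0.18). Its second probe set, dim at 11.3 to 42.4, gave -0.44 with overlap.

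Among transport genes, the sterol carrier Stard4 and the exporter Abca1 read lower and the exporter Abcg1 and the lysosomal genes read higher, none past the threshold. Stard4, which moves cholesterol between membranes and is induced by SREBP, read 140.2, 142.4 and 167.8 in KO mice, against 191.1, 171.8 and 180.0 in WT mice. The groups did not overlap (difference -0.25, interval -0.51 to 0.01), but its other probe sets gave 0.09 and -0.13. Abca1, which loads cholesterol onto apolipoproteins, read 530.5, 497.6 and 502.2 in KO mice, against 612.2, 589.1 and 580.7 in WT mice.

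Abca1 had the smallest spread of all members within the groups. The means were 510 ± 18 in KO and 594 ± 16 in WT (SD, 3 mice each), without overlap (difference -0.21, SE 0.08, limma adjusted p = 0.40, range over alternatives 0.33 to 0.77), and its 2 dimmer probe sets gave -0.07 and -0.02. Abcg1, which like Abca1 is induced by the sterol-sensing LXR receptors, read 482.3, 449.7 and 414.9 in KO mice, against 439.2, 409.5 and 374.6 in WT mice (difference 0.13, interval -0.07 to 0.34). The groups overlapped. The second Abcg1 probe set, which was dimmer, gave -0.01. The test of Abca1 against Abcg1 was not made.

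Apoe, the main cholesterol-carrying apolipoprotein of the brain, read 6085.6, 4937.4 and 6158.3 in KO mice, against 6296.4, 6441.3 and 5970.7 in WT mice. KO 2 stood well below the other 5 mice (difference -0.13, interval -0.31 to 0.06), and without KO 2 the difference was -0.03. The lysosomal exporters Npc1 and Npc2 gave 0.19 and 0.10, with overlap, and all 3 tested Npc2 probe sets were higher. Without WT 3 the Npc1 difference was 0.08, and without WT 2 that of Npc2 was 0.02. Lrp1, a receptor for ApoE particles, gave -0.06.

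Cyp46a1, the neuronal cholesterol hydroxylase, showed no difference that could be detected with these arrays. It read 1306.0, 1282.4 and 1217.6 in KO mice, against 1240.7, 1302.7 and 1055.4 in WT mice. The groups overlapped, and the difference was 0.08 (interval -0.10 to 0.27). Without WT 3, the lowest mouse, it was -0.00.

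**Figure D3:**
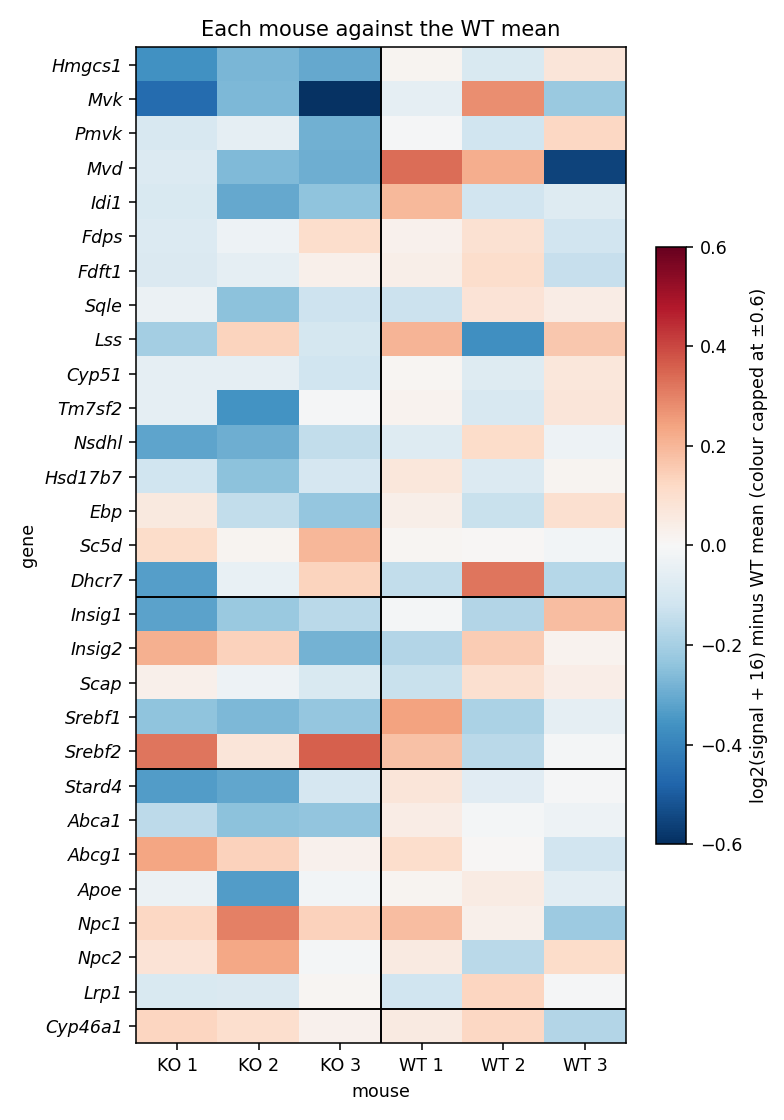
Log2(signal + 16) of each of the 29 genes (rows, in order of role) in each mouse (columns, KO left of WT) minus the WT mean, with colour capped at 0.6 in either direction. Blue predominates in the 3 KO columns of the synthesis rows above the first line, and Mvk, Mvd, Lss and Dhcr7 vary visibly within a group.

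The synthesis genes were set against the 13 members of regulation, transport and hydroxylation, whose median was -0.03 with 7 lower and 6 higher. Their median changed sign to 0.01 when arrays were centred on their medians, and that of synthesis was then -0.09. Per mouse, the median deviation of the synthesis genes from the WT mean was -0.09, -0.20 and -0.12 in KO, against 0.02, -0.04 and 0.00 in WT. For the other members it was 0.03, -0.03 and -0.02 in KO, against 0.05, 0.01 and -0.01 in WT. The synthesis medians of the genotypes did not overlap and those of the other members did.

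The gap between both sets was -0.12, -0.17 and -0.10 in KO mice, against -0.03, -0.04 and 0.01 in WT mice, and over the groups it was -0.11. The size of this gap hung on single mice. Without WT 1 it was -0.02, without WT 2 it was -0.20, without KO 2 it was -0.07 and without KO 3 it was -0.16. With probe sets averaged per gene in place of the brightest it was -0.05. No test was made of these medians, because the genes were chosen with earlier results of these arrays known. KO 1, KO 2 and KO 3 lay below the WT mean for 14, 14 and 12 of the 16 synthesis genes, and for 6, 7 and 8 of the 13 others. The median SD within the groups was 0.12 on the log2 scale for the members and 0.15 for all genes tested.

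Other genes of the pathway were taken from a fixed list of 34, of which 28 were tested and 0 passed in limma. At an unadjusted p under 0.05, 1 was lower and 0 higher, against 5.61% and 4.12% of all genes. All KO mice lay below all WT mice for 2 of the 28 (7.14%), against 8.48% of all genes. The list was even, with 15 lower and 13 higher and a median of -0.01. Msmo1, the sterol methyl oxidase that acts just before Nsdhl, read 656.2, 642.9 and 593.5 in KO mice, against 771.3, 779.1 and 866.2 in WT mice. All KO mice were below all WT mice (difference -0.34, SE 0.08, limma adjusted p = 0.13). Erlin1, an endoplasmic reticulum protein, was next by p with 0.20 (interval -0.03 to 0.44).

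Fatty acid genes driven by SREBP, a list of 10, had 8 lower and 2 higher with a median of -0.12, and 0 passed in limma (3 at an unadjusted p under 0.05). Scd1, a stearoyl-CoA desaturase, read 1000.9, 951.3 and 881.2 in KO mice, against 1361.9, 1181.8 and 1046.4 in WT mice (difference -0.33, limma adjusted p = 0.24). The fatty acid elongase Elovl5 gave -0.25 and the brain desaturase Scd2 -0.15. In each of these 3, named after their values were seen, the groups did not overlap. Over all genes, 5.61% were lower at an unadjusted p under 0.05 and 8.48% had every KO mouse below every WT mouse. Fasn, fatty acid synthase, gave -0.12 with overlap.

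Markers of oligodendrocytes, the cells that make myelin, were uneven beside these results. Of 9 tested 7 were lower and 2 higher, with a median of -0.18, and 0 passed in limma. At an unadjusted p under 0.05, 3 were lower and 1 higher, against 5.61% and 4.12% of all genes. Mag gave -0.43, Opalin -0.38 and Ugt8a -0.32, whereas Mal gave 0.37 and Cldn11 0.25. All KO mice lay below all WT mice for Mag and Opalin, as for 8.48% of all genes. They lay above them for Mal, as for 6.64% of all genes. Their summed signal was 27745.5 to 28968.7 in KO mice and 27349.9 to 33138.1 in WT mice. Their per-mouse medians were -0.17, -0.16 and -0.19 in KO, against 0.17, -0.08 and -0.11 in WT, with WT 1 apart from the other WT mice. The part of these cells in the synthesis result was not tested.

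Of 8 astrocyte markers 3 were lower and 5 higher (median 0.03), with a summed signal of 10899.3 to 12249.6 in KO mice and 11326.8 to 11636.4 in WT mice. S100b gave -0.37 without overlap and Gja1 0.14. Of 7 striatal projection neuron markers 1 was lower and 6 higher (median 0.07), of 5 pan-neuronal markers 3 were lower (median -0.05), of 8 microglial markers 3 were lower (median 0.11), of 4 endothelial markers 3 were lower (median -0.07) and of 3 cortical markers 2 were lower (median -0.18, with a summed signal of 529.2 in KO 3, against 178.2 to 405.6 in the other 5 mice). Of 5 choroid plexus markers only 2, Ttr and Kcnj13, were tested, and Kl, Folr1 and Aqp1 were too dim for the filter. Their summed signal was 2624.8 to 3714.8 in KO mice and 1285.0 to 2238.9 in WT mice, nearly all of it Ttr. Kcnj13 was dim (20.6 to 55.1) and overlapped between the groups (difference 0.23, interval -0.32 to 0.78). Of all these markers only Ttr passed.

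**Figure D4:**
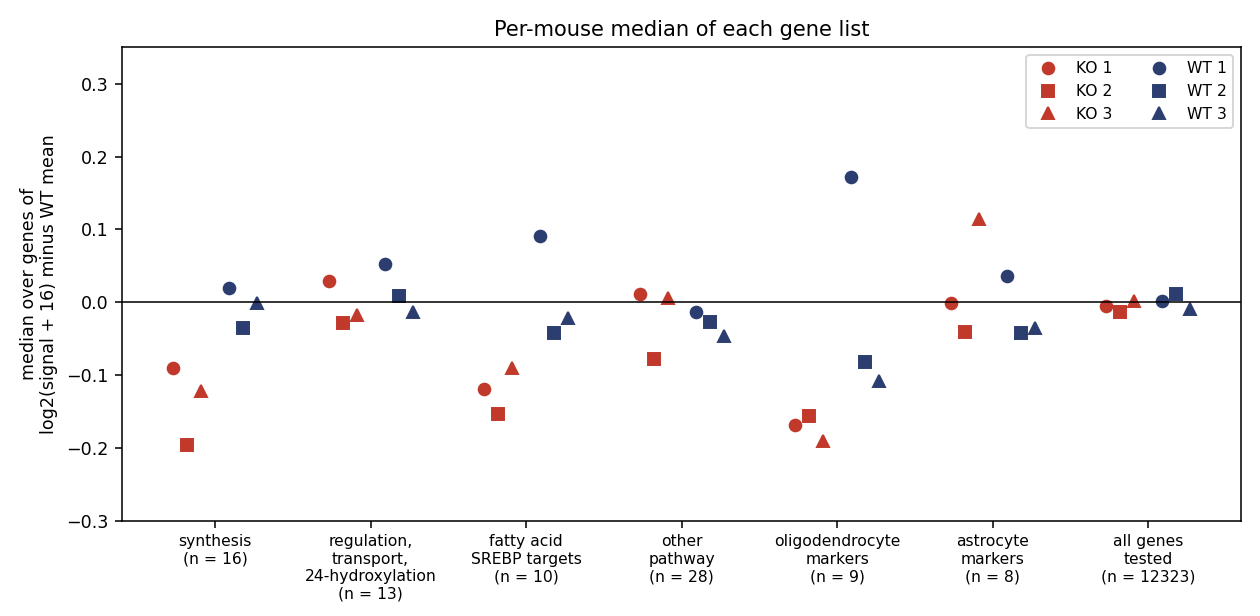
Per-mouse median, over the genes of each list, of log2(signal + 16) minus the WT mean (y axis), with KO mice left of WT mice in each list and a symbol shape for each mouse number. In the synthesis and fatty acid lists every KO point lies below every WT point, the oligodendrocyte list does so with WT 1 far above the rest, and the median over all 12323 genes stays near 0.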

How the data were processed

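The deposited intensity values are linear probe set signals. MAS5 made them, per the submitters' processing notes, and neither its version nor its settings are given there. They were already scaled between arrays, so differences in total RNA are not visible. The mean without the top and bottom 2% of values was 150.0 on every array, and the medians ran from 43.1 to 47.3. Of 45101 probe sets, 64 controls were left out, and 34945 had exactly 1 symbol in the platform annotation, updated through the GRCm38.p6 gene table. Signals were transformed as log2(signal + 16), which understates the change of dim genes. The filter kept the 27022 probe sets whose mean log2 value exceeded the 40th percentile, a signal of 26.8. KO was compared with WT in limma 3.58.1 (R 4.3.3, eBayes with intensity trend), adjusted by Benjamini-Hochberg over all of them, with a threshold of 0.05. That called 48 higher and 79 lower. The procedure was tested on simulated data. Replicates are separate mice, and 3 arrays per group limit the precision. All members are named, those without overlap with every value, and of the further pathway genes the 2 with the smallest p. Members and lists were chosen with earlier results of these data known. Alternatives were another scaling, offset, filter, variance model, the replicate number as a block, probe sets averaged per gene, and omission of each array in turn.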

Additional observations from a re-analysis of the deposited data

How the results depend on the processing

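None of the members was called in limma under any of the 16 alternatives, and 17 of 29 kept their sign in all 16. Mvk and Mvd kept theirs in the 15 that tested them. Over the single arrays left out, the synthesis median ran from -0.18 to -0.11, and 12 to 15 of the 16 genes were lower. The median of the other members ran from -0.0981 to 0.0161, and the gap between both sets from -0.196 to -0.0207. Under median centring of the arrays, the synthesis median was -0.0930 with 13 of 16 lower, and that of the other members 0.0130. With probe sets averaged per gene, the other members' median was -0.0897 and the gap -0.0473. The causes were not tested. The count of probe sets called over the whole array was 127. It was 25 when the variance had no intensity trend, 52 when unfiltered and 65 to 102 with an array left out. Equal mouse numbers did not deviate together (correlations of -0.03 to 0.02 between KO and WT mice of the same number), and the replicate block gave 100 calls, none on a member. At the 60th percentile filter Mvk and Mvd were no longer tested. For dim members such as these, signal near background limits the precision.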
